A study of Rattus norvegicus with 6 samples.

Results

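Alpha cells of the rat pancreas were taken as barcodes in which glucagon was the leading hormone transcript, and 1673 of 75981 kept barcodes, or 2.20%, met this rule. They were chosen by the measured share of glucagon transcripts in each barcode. A barcode, which stands for a droplet that held a cell, was kept with at least 200 detected genes and at most 25% of its unique molecular identifiers (UMIs, counts of single transcript molecules) from mitochondrial genes, and 75981 of 78024 barcodes passed. An alpha cell had at least 5% of its UMIs from Gcg, the glucagon gene, more from Gcg than from Ins1 and Ins2 together, from Ppy and Pyy together or from Sst, and no UMI of Ptprc, the pan-leukocyte gene. The levels of these 7 genes therefore describe the choice and were not tested. The same limits, applied to the other hormones, gave 3575 beta, 1118 pancreatic polypeptide (PP) and 48 delta cells.

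The pancreas of 6 male Wistar rats was profiled by droplet single-cell RNA sequencing, with 1 library a rat and 2 rats a group. The young rats were 2 months old at baseline, and the old and the HFHF-old rats were 20 months old after 18 months on a control diet or on a high-fat high-fructose (HFHF) diet. Islets were enriched with collagenase P and a density gradient, so that shares of cells also depend on the isolation, and the labels name no genetic change. The replicates are separate rats, named here young 1 and 2, old 1 and 2 and HFHF-old 1 and 2, and an exact permutation test of 2 against 2 cannot go below p = 0.333.

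Alpha cells sit in the islets of Langerhans and release glucagon when blood glucose is low or amino acids are high, and glucagon in turn drives glucose output and amino acid breakdown in the liver. Proglucagon is cut to glucagon by the prohormone convertase Pcsk2, whereas Pcsk1 cuts it to GLP-1 in the gut. The factors Irx1, Irx2 and Pou3f4 mark alpha cells among rodent islet cells, and Pdx1, Nkx6-1 and Mafa mark beta cells. Vitamin D-binding protein (Gc) and transthyretin (Ttr) are further alpha cell transcripts.

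The libraries were unlike in content. They kept 7479 to 17504 barcodes, and immune barcodes, that is barcodes with Ptprc and with no hormone at 5% or more, numbered 3583 to 10690 and took 10690 of 11738 barcodes in HFHF-old 2. That library held 8 islet barcodes in all, among them 3 alpha cells. Pairs of libraries shared 20 to 69 barcode sequences, and none was an alpha cell in both. RNA free in the suspension also reaches droplets: Gcg made up 0.000801% to 0.193% of the UMIs of immune barcodes, at median depths of 3420 to 10340.5 UMIs, so the level in immune barcodes is given below beside genes for which it matters. Doublets were not called.

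Alpha cells were present in every library, and fewest in the HFHF-old rats. They numbered 436 and 457 in the young rats, 105 and 652 in the old rats and 20 and 3 in the rats on the HFHF diet. As a share of kept barcodes these were 2.49% and 4.42% for the young rats, 1.40% and 3.97% for the old rats and 0.160% and 0.0256% for the HFHF-old rats. The exact 95% binomial intervals of the HFHF-old shares, 0.0977% to 0.247% and 0.00527% to 0.0747%, lay below the shares of the other 4 libraries, and such intervals cover counting error only. Group means were 3.46% ± 1.37 (SD, n = 2) for young, 2.69% ± 1.81 for old and 0.0927% ± 0.0950 for HFHF-old rats. Both HFHF-old libraries were below both old libraries (difference of -2.59 percentage points, exact permutation p = 0.333, 2-sided, the smallest p the design allows). Old and young rats overlapped (difference of -0.771 points, exact permutation p = 0.667). The share of all barcodes falls when more immune or exocrine barcodes are captured, and the part of this in the difference was not tested.

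Among islet barcodes the picture differed. Alpha cells made up 62% and 20.3% of islet barcodes of the young rats, 18.6% and 30.3% of the old rats and 2.74% and 37.5% of the HFHF-old rats, the last being 3 of 8. The HFHF-old rats thus stood below and above both old rats, and young 1 stood apart from young 2. Means of 41.2% ± 29.5, 24.4% ± 8.29 and 20.1% ± 24.6 (SD, n = 2) did not separate the groups (old against young -16.7 points, exact permutation p = 0.667; HFHF-old against old -4.29 points, p = 1). The low share in HFHF-old 1 went with 659 beta cells, which had a median of 746 UMIs against 18832.5 in its 20 alpha cells. This share moved with the limits that beta cells had to meet. It was 6.03% with a hormone share of at least 10% (246 beta cells), 6.29% with at least 1000 UMIs (234 beta cells) and 1.36% with a hormone share of at least 2% (1397 beta cells).

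**Figure D1:**
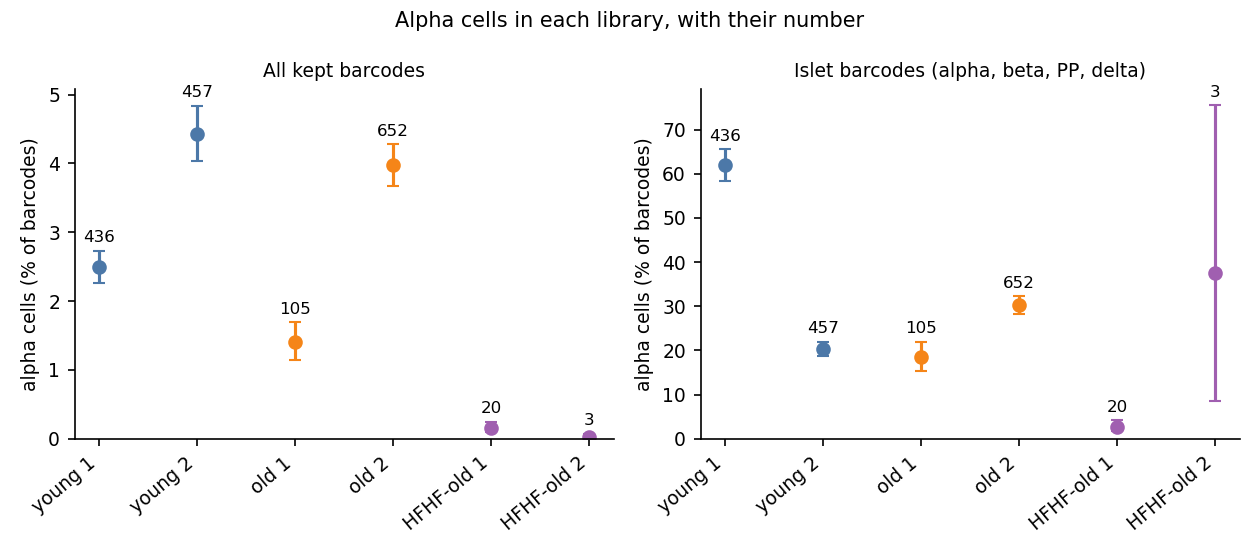
Alpha cells as a percent of kept barcodes (left) and of islet barcodes (right) in each library, with exact 95% binomial intervals and the number of alpha cells above. Both HFHF-old libraries lie below 0.2% of barcodes, while their islet shares, 2.74% and 37.5%, lie on both sides of the old rats.

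Within alpha cells, glucagon transcripts took a larger part of the RNA in the old rats than in the others, as a description of the genes that chose the cells. The median share of Gcg was 20.4% and 24.8% of a cell's UMIs in the young rats, 41.5% and 34.2% in the old rats, and 21.4% and 20.8% with the HFHF diet. Both old libraries were above the other 4. The old rats were also highest in cells with at least 1000 UMIs, with medians of 22.0% and 30.6%, 43.2% and 42.2%, and 21.7% and 20.8%. Over all alpha cells the median was 26.6% and the highest value 71.6%. In HFHF-old 2 the 3 cells had 6.96%, 20.8% and 47.3% of 5147, 1506 and 1661 UMIs. Summed over alpha cells, Gcg gave 23.6% and 36.4% of UMIs in the young rats, 44.3% and 43.3% in the old rats and 25.1% and 17.5% with the HFHF diet.

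The limit of 5% passed through a thin tail. Between 5% and 6% lay 66 alpha cells, and 43 barcodes that met the other conditions lay between 4% and 5%, with 4.99% and 5.01% nearest to the limit on either side. A further 490 barcodes would have been alpha cells but for a UMI of Ptprc. Other hormones were minor in the summed alpha cells, but not in every cell. Ppy and Pyy gave 0.309% and 1.76% of UMIs in the young rats, 0.198% and 1.96% in the old rats and 3.61% and 0.878% with the HFHF diet. Ins1 and Ins2 together gave 0% to 0.809%. Cell by cell, Ins1 and Ins2 passed 1% of UMIs in 211 of 457 alpha cells of young 2 (46.2%), and Ppy and Pyy did in 149 (32.6%). In HFHF-old 1, Ppy and Pyy passed 1% in 9 of 20 alpha cells and 10% in 3. Keeping only cells whose other hormones came to under 10% of Gcg left 214 alpha cells in young 2 and 12 in HFHF-old 1. Conversely, Gcg gave 0.0127% to 2.49% of the UMIs of beta cells and 0.0963% to 1.55% of those of PP cells in the 5 libraries with more than 10 alpha cells, which was above the immune barcodes of the same library for PP cells in all 5 libraries and for beta cells in all but young 1.

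Depth differed among alpha cells. Median depths were 10606.5 and 4546 UMIs for the young rats, 23174 and 6360.5 for the old rats, and 18832.5 and 1661 for the HFHF-old rats, and 367 cells, or 21.9%, had under 1000 UMIs. In young and old rats these shallow barcodes carried the alpha identity genes (the 12 of that list other than Gcg) at 1095 to 1464 CPM, against 3540 to 4981 CPM in the deeper alpha cells, where CPM is counts per 1e+06 UMIs outside the 7 genes of the rule. Macrophage markers (10 genes) stood at 4717 to 6380 CPM in the shallow and 254 to 831 CPM in the deeper barcodes of the same 4 libraries. The shallow barcodes thus held relatively less of the alpha identity genes and more of the macrophage markers, and the part of free RNA in this was not tested. They supplied 6829 to 110662 of the 1305292 to 3997399 UMIs outside the rule in each of these 4 libraries.

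**Figure D2:**
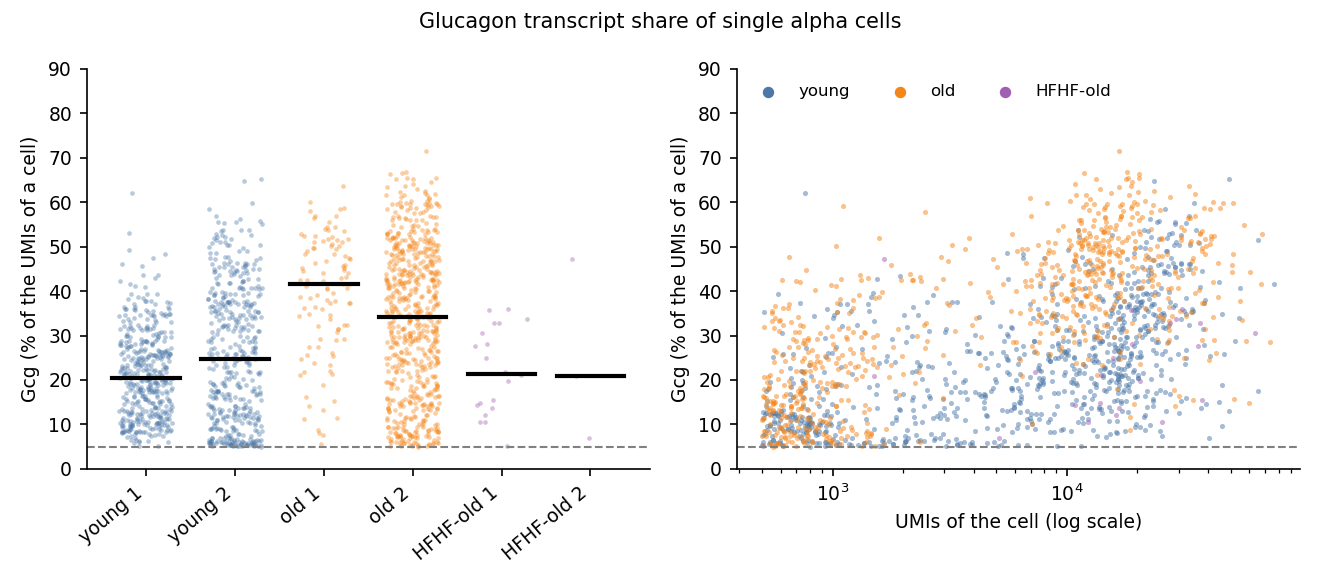
Gcg as a percent of the UMIs of each alpha cell, by library with medians as bars (left) and against the cell's UMIs on a log scale (right); the dashed line is the 5% limit. The medians of the old rats, 41.5% and 34.2%, lie above those of the other libraries, and shallow cells lie mostly at low shares.

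Genes that the rule did not use told these barcodes from immune barcodes. After each cell was thinned to 2000 UMIs, with shallower cells left out, Gc was seen in 88.4% and 84.6% of young, 96.6% and 92.6% of old and 100% of HFHF-old 1 alpha cells, against 0.4% to 4% of immune barcodes and 11.4% to 40.6% of beta cells of these libraries. Gc was thus more frequent in alpha cells but not particular to them. Thinned in the same way, Irx2 was seen in 9.94%, 8.17%, 6.74%, 0.820% and 0% of alpha cells of young 1 and 2, old 1 and 2 and HFHF-old 1, against at most 0.2% of immune barcodes and 0.341% of beta cells. The last is 0 of 19 cells, which allows a share of up to 15.8% with a UMI at this thinned depth and sets no limit on cells that express the gene. Without thinning, Irx2 was seen in 37.4%, 29.1%, 54.3%, 5.83% and 50% of these alpha cells, and in 0.0134% to 0.227% of immune barcodes. Old 2 stood apart as the library with little Irx2. Ttr was sparse for a marker, in 4.97%, 3.92%, 11.2%, 4.64% and 10.5% of the thinned alpha cells and at most 0.2% of immune barcodes, or 13.6% to 35.2% and at most 0.251% without thinning. In HFHF-old 2 all 3 cells had Gc, and none had Irx2 or Ttr.

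To ask which genes set alpha cells apart from their neighbours, counts were summed per rat and cell type and compared with beta cells and with PP cells of the same rats by edgeR's quasi-likelihood test, with the rat as a block. The 5 rats with at least 10 cells of each type entered, so HFHF-old 2 was left out. Calls needed a fold change over 1.5 and a p under 0.05 after Benjamini-Hochberg adjustment across all genes tested. Values are CPM after TMM scaling within each fit, the errors of log2 fold changes are standard errors (SE) worked back from the F statistic, and each set of 5 values follows the order young 1, young 2, old 1, old 2 and HFHF-old 1. The comparisons with beta and with PP cells share the alpha sums, so they are given side by side and not as independent evidence.

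Against beta cells, 2910 of 11383 genes tested were called (25.6%), of which 1257 were higher in alpha cells (11%) and 1653 lower (14.5%), and the count was 1741 without the term for the rat. Of 11 alpha identity genes tested, of 13 listed, 10 were higher and none lower, with a median log2 fold change of 2.88 against -0.0392 over all genes. All 9 beta marker genes tested, of 13 listed, were lower, with a median of -5.80. Macrophage RNA was higher in beta than in alpha barcodes in all 5 rats, and acinar RNA in 4 of the 5 (not in young 1). Macrophage markers summed to 787 to 6270 CPM in beta and 284 to 925 CPM in alpha cells, and all 10 were called lower in alpha cells, while acinar markers summed to 2106 to 135874 CPM in beta and 2189 to 26146 CPM in alpha cells, with 7 of 14 called lower. Lower levels in alpha cells of genes that macrophages or acinar cells express cannot be told apart from this.

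Factors that mark alpha cells were among the largest differences. Irx2 reached 59.0, 83.2, 89.1, 13.1 and 76.7 CPM in alpha cells and 0, 2.86, 3.1, 0.231 and 0 CPM in beta cells. The 2 ranges did not overlap, and the log2 fold change was 5.70 (SE 0.50, edgeR adjusted p = 0.000142). Pou3f4, a POU-domain factor, reached 45.5, 57.9, 59.4, 41.3 and 81.8 CPM against at most 2.59 CPM in beta cells (5.64, SE 0.51). Irx1 (4.68, SE 0.34) and Fev (3.59, SE 0.44) were also higher. Gc stood at 1341, 2653, 2750, 2735 and 2877 CPM in alpha cells and at 351, 831, 435, 594 and 271 CPM in beta cells, which is a log2 fold change of 2.37 (SE 0.26, adjusted p = 0.000442). Gc thus was abundant in alpha cells but not absent from beta barcodes. Ttr was at 36.1 to 80.2 CPM against 1.55 to 14.8 CPM (2.88, SE 0.45). Slc7a2, a cationic amino acid transporter, was the listed gene not called (0.52, SE 0.29, adjusted p = 0.199).

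Beta cell genes were lower in alpha cells, and several were near 0. Nkx6-1 was at 0, 0.975, 0, 1.31 and 0 CPM in alpha cells and at 262, 54.6, 224, 191 and 187 CPM in beta cells (log2 fold change -8.17, SE 0.50). Slc2a2, the GLUT2 glucose transporter, was at 1.75, 3.58, 2.23, 6.89 and 0 CPM against 456 to 1359 CPM (-8.00, SE 0.45). Wnt3 had no UMI in the summed alpha cells of any of the 5 rats and 7.54 to 44.0 CPM in beta cells, at least 106-fold lower on 3 counts over the group. Gad2, the enzyme that makes GABA (-8.26, SE 0.34), the granule protein Sytl4 (-7.46, SE 0.24), Pdx1 (-5.80, SE 0.39), and Mafa (-6.22, SE 0.68) were lower in every rat. Iapp, islet amyloid polypeptide, was lower but well above 0, at 312, 405, 385, 327 and 161 CPM in alpha and 1309 to 7921 CPM in beta cells (-3.43, SE 0.27). Among genes with at least 20 CPM in the higher cell type and the same direction in every rat, the 10 largest differences each way further held Elmod1, Cdh8, Dok6, AABR07038021.1, AABR07020952.1, Avpr1b and Scn9a as higher and Tmem35a, Pcsk1, Glp1r, Tmem215 and Smim5 as lower genes, with log2 fold changes of 4.65 to 5.64 and of -6.58 to -6.15.

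Receptors of the listed alpha cell signals went both ways, with 7 higher and 5 lower of 17 tested, beside 11% and 14.5% of all genes. Avpr1b, the vasopressin V1b receptor, was at 19.9, 25.7, 36.4, 29.2 and 33.2 CPM in alpha cells and at no more than 1.56 CPM in beta cells (5.64, SE 0.52). Sstr2, the somatostatin receptor of alpha cells, was at 19.7, 19.5, 44.6, 62.7 and 15.3 CPM against no more than 3.47 CPM (4.35, SE 0.35). The incretin receptor Glp1r was at 0.437, 0.975, 2.23, 3.28 and 0 CPM in alpha cells and at 130, 48.1, 145, 144 and 134 CPM in beta cells (-6.24, SE 0.33). The glucagon receptor Gcgr (-6.02, SE 0.54) and the adrenergic receptor Adra2a (-3.65, SE 0.35) were also lower. Thus GLP-1 and glucagon receptor transcripts were found in beta cells and at no more than 3.28 CPM in alpha cells. Casr, the calcium-sensing receptor (2.51, SE 0.40), the lipid receptors Gpr119 (1.86, SE 0.32) and Ffar4 (2.40, SE 0.54), the insulin receptor Insr (0.92, SE 0.19) and the growth hormone receptor Ghr (0.89, SE 0.14) were higher.

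Among channels and glucose-sensing genes, 6 were higher and 7 lower of 21 tested, beside 11% and 14.5% of all genes. Scn9a, the sodium channel Nav1.7, was at 136, 77.7, 74.3, 48.6 and 207 CPM in alpha cells against 0.607 to 6.76 CPM in beta cells (4.65, SE 0.61). Abcc8, the regulatory subunit of the ATP-sensitive potassium channel (1.27, SE 0.13), and the potassium channel gene Kcnk16 (2.21, SE 0.30) were higher. Kcna2 (-4.37, SE 0.26) and the calcium channel Cacna1h (-2.94, SE 0.48) were lower. Of amino acid genes, Got1 (0.72, SE 0.12), Slc1a5 (1.46, SE 0.40) and Slc38a4 (0.90, SE 0.26) were higher and none of 14 was lower. Slc38a5, the glutamine transporter, did not pass (413, 525, 816, 699 and 146 CPM in alpha and 292, 377, 797, 481 and 243 CPM in beta cells, log2 fold change 0.19, SE 0.20, edgeR adjusted p = 0.499). The calls for Slc1a5 and Slc38a4 were lost when young 1 or old 2 was left out, that for Slc1a5 also without HFHF-old 1 and that for Slc38a4 also without old 1, with adjusted p of 0.0528 to 0.116.

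Among secretory genes, the prohormone convertases and protein-folding genes differed as follows. Pcsk1 was at 9.4, 12.4, 2.23, 16.7 and 0 CPM in alpha cells and at 1249, 542, 1138, 656 and 747 CPM in beta cells (-6.46, SE 0.50, edgeR adjusted p = 9.51e-05). Pcsk2 was at 7108, 6473, 6764, 6105 and 6250 CPM in alpha and at 5437, 2256, 5014, 3618 and 4902 CPM in beta cells, higher in all 5 rats without being called (0.69, SE 0.24, adjusted p = 0.0565). In the list for proglucagon processing, which also holds granins, 2 of 9 genes tested were called higher. These were Chgb, chromogranin B (1.21, SE 0.30), and the secretogranin Scg3 (0.63, SE 0.17). Both calls were lost without the term for the rat (edgeR adjusted p = 0.0600 and 0.126). Of 20 exocytosis genes, 6 were higher, among them Syt7 (1.26, SE 0.19) and Rims2 (1.20, SE 0.18), and 5 were lower, among them Syt13 (-1.11, SE 0.20), beside 11% and 14.5% of all genes. Of 25 genes of the unfolded protein response, the program that raises folding capacity in the endoplasmic reticulum, 17 were lower in alpha cells and none higher. The median log2 fold change was -0.811, beside 14.5% of all genes lower and 11% higher. Beta barcodes also held more acinar RNA in all rats but young 1, as given above, and its part in this was not tested. Ero1b, the islet disulfide oxidase, was at 33.7, 20.8, 20.8, 21.0 and 40.9 CPM in alpha and at 792, 267, 748, 639 and 940 CPM in beta cells (-4.56, SE 0.23), and Sdf2l1 (-2.60, SE 0.19), Dnajc3 (-1.52, SE 0.13) and Manf (-1.47, SE 0.16) were lower too.

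Immediate early genes, which also respond to cell dissociation, were higher in alpha than in beta cells for 7 of 18 tested and lower for 1, beside 11% and 14.5% of all genes. Egr1 was at 1295, 567, 921, 1482 and 1414 CPM in alpha and at 480, 183, 278, 420 and 613 CPM in beta cells (1.56, SE 0.15), and Btg2 (1.79, SE 0.19), Jun (1.37, SE 0.18) and Fos (1.33, SE 0.15) were higher. The list as a whole stood at 6611 to 16900 CPM in alpha, 3469 to 7532 CPM in beta and 4656 to 16405 CPM in immune barcodes of these libraries. Of 25 genes of lipid handling, 8 were higher and 4 lower, beside 11% and 14.5% of all genes, so that the share lower was near that of all genes. Pdk4, the kinase that turns off pyruvate dehydrogenase, was at 66.7, 58.8, 72.0, 95.1 and 97.2 CPM in alpha and at 1.05, 2.34, 6.72, 17.1 and 13.4 CPM in beta cells (3.36, SE 0.35). The cholesterol synthesis gene Hmgcs1 (1.61, SE 0.19) was higher, and the fatty acid-binding protein Fabp3 (-2.73, SE 0.32) was lower. Of 29 antioxidant genes, 1 was higher and 9 were lower, among them Gpx4 (-0.89, SE 0.12) and Nqo1 (-2.85, SE 0.46), and of 25 inflammation and antigen presentation genes 1 was higher and 12 were lower, beside the same shares of all genes and the macrophage RNA given above. The calls for Syt7, Rims2, Gpx4, Ffar4 and Ghr were lost without the term for the rat, with adjusted p of 0.0629 to 0.119.

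Of the 8 genes that the study followed in alpha cells and that could be tested, Slc2a2, Pcsk1, Pdx1 and Ero1b were lower than in beta cells, as given above. Atox1 (-0.071), Sod1 (-0.12), Ndufs4 (0.091) and Pyroxd1 (-0.078) were not called, with adjusted p of 0.507 to 0.782. Against PP cells, Ero1b (-0.79, SE 0.13), Pdx1 (-1.97, SE 0.35) and Pcsk1 (-3.52, SE 0.30) were lower and Atox1 was higher (0.60), while Sod1 (-0.014), Ndufs4 (0.027) and Pyroxd1 (0.099) were not called.

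**Figure D3:**
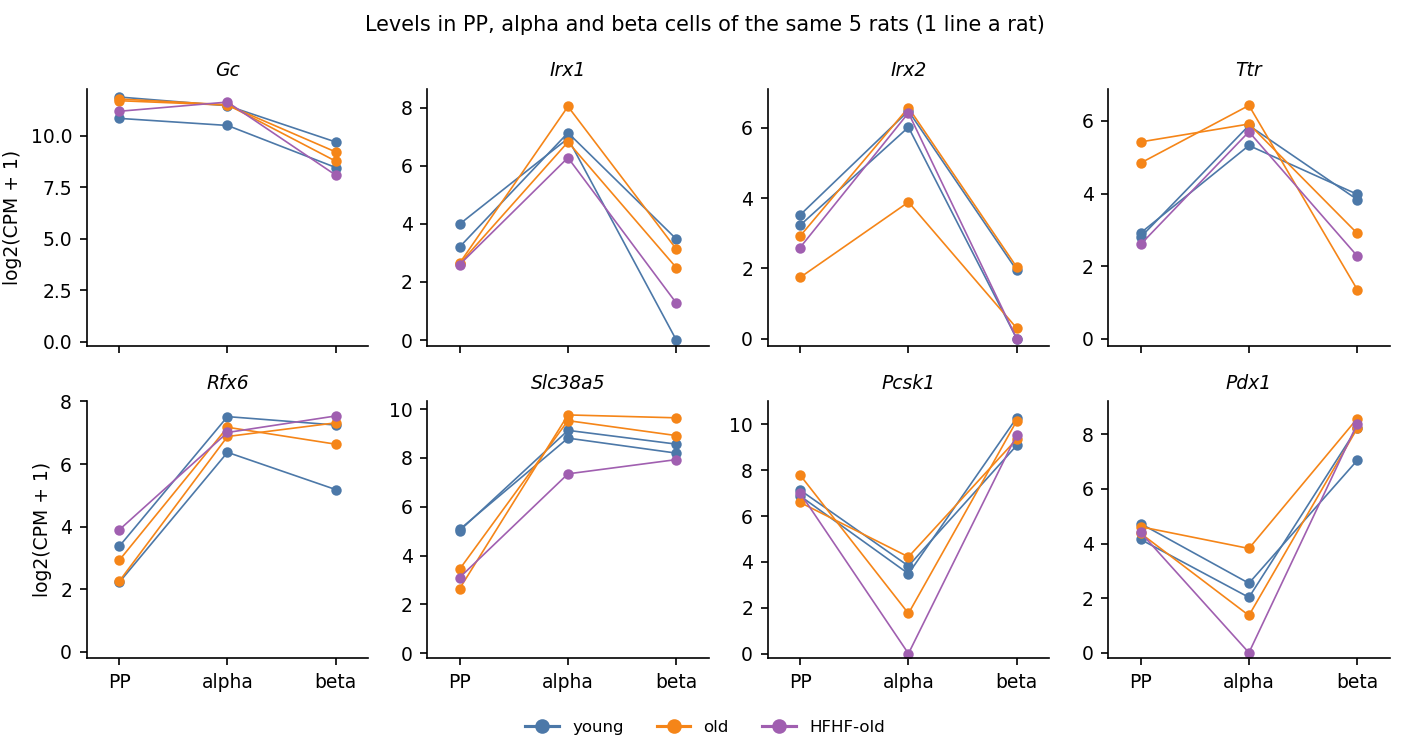
Levels of 8 genes, as log2(CPM + 1), in PP, alpha and beta cells of the 5 rats, with 1 line a rat and alpha values from the fit with PP cells. Irx1 and Irx2 peak in alpha cells in every rat, and Pcsk1 and Pdx1 are lowest in alpha cells.

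Alpha and PP cells shared some of the genes that told alpha from beta cells. Of 10326 genes tested 1375 were called (13.3%), 681 of them higher in alpha cells (6.6%) and 694 lower (6.72%), and the count was 619 without the term for the rat. Of 10 macrophage and 14 acinar markers 0 were called by edgeR, and 0 had an unadjusted p under 0.05. Of 7 fibroblast markers 1 was called, Col3a1, a collagen gene, which was lower in alpha cells in all 5 rats (-0.70, SE 0.18, edgeR adjusted p = 0.0129). Of 11 alpha identity genes 7 were higher and 1 was lower, with a median of 1.32 against 0.00143 over all genes. Gc was not called, at 1452, 2821, 2918, 2879 and 3192 CPM in alpha and 1844, 3783, 3541, 3344 and 2341 CPM in PP cells (-0.17, SE 0.11, edgeR adjusted p = 0.303), nor were the factors Fev (-0.19, SE 0.10) and Smarca1 (-0.27, SE 0.10). Gc was higher in PP than in alpha cells in 4 of the 5 rats.

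Other factors did tell alpha from PP cells. Irx1 was at 122, 140, 262, 112 and 76.6 CPM in alpha and 14.9, 8.22, 5.27, 5.18 and 5.05 CPM in PP cells (4.11, SE 0.21). Irx2 was at 63.9, 88.5, 94.6, 13.8 and 85.1 CPM against 2.35 to 10.5 CPM (3.21, SE 0.19). Old 2 had the least Irx2 in both cell types, yet the ratio held in it. Rfx6, a factor of endocrine development, was at 182, 81.9, 143, 117 and 128 CPM in alpha and 3.65 to 13.9 CPM in PP cells (4.29, SE 0.18), while it was not called against beta cells (0.11, SE 0.24, adjusted p = 0.763). Pou3f4 (1.16, SE 0.14), Ttr (1.73, SE 0.32), Isl1 (0.91, SE 0.09) and Neurod1 (0.81, SE 0.10) were higher too. The beta cell peptide gene Ucn3, urocortin 3, was at 24.1 to 36.9 CPM in alpha and 0 to 3.79 CPM in PP cells (3.94, SE 0.31), and at 73.5 to 217 CPM in beta cells (alpha against beta -2.54, SE 0.21).

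Amino acid genes were higher in alpha than in PP cells for 7 of 14 tested and lower for none, beside 6.6% and 6.72% of all genes, with a median log2 fold change of 0.846. Slc38a5 was at 447, 558, 865, 736 and 162 CPM in alpha and 32.6, 31.5, 5.27, 9.88 and 7.58 CPM in PP cells (4.89, SE 0.30, edgeR adjusted p = 1.15e-07). Got1, an aspartate aminotransferase (2.29, SE 0.13), the glutamine transporter Slc1a5 (2.01, SE 0.21), Slc38a4 (1.43, SE 0.11), Slc7a2 (1.32, SE 0.09) and the large neutral amino acid transporters Slc7a5 and Slc7a8 (0.99 each, SE 0.11 and 0.09) completed the 7. For Slc38a5 the alpha and PP ranges did not overlap, whereas the alpha and beta ranges given above did.

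The largest differences from PP cells, by the same rule as for beta cells, were in genes of other roles. Pdk4 was at 72.2, 62.6, 76.4, 100 and 108 CPM in alpha and 0 to 2.28 CPM in PP cells (5.91, SE 0.29), and the monoamine oxidase Maob at 219, 287, 322, 228 and 73.8 CPM against 3.79 to 9.13 CPM (4.99, SE 0.15). Mgat4c (5.81, SE 0.33), Avpr1b (5.24, SE 0.34), Baiap3, a protein of dense-core vesicle traffic (5.22, SE 0.25), the ectonucleotidase Entpd3 (4.98, SE 0.26), Cnnm1 (4.83, SE 0.33), Wdr49 (4.75, SE 0.31) and Tll1 (4.73, SE 0.38) were, with Slc38a5, the others of the 10 largest higher genes. Lower were the BMP receptor Bmpr1b (-5.17, SE 0.45), Fxyd3 (-4.89, SE 0.39), Rprm, Anxa13, Slc35d2, Apoh, the channel Trpa1, Dsp, the guanylate cyclase Gucy2c and Slitrk6, the last 8 with log2 fold changes of -4.38 to -3.81. Of receptors, Epha4 was at 3.31, 5.18, 7.88, 9.67 and 39.7 CPM in alpha and 72.7, 52.0, 75.1, 79.5 and 167 CPM in PP cells (-3.27, SE 0.23), and Ffar4 was lower (-1.11, SE 0.12).

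Of 9 genes tested in the list for proglucagon processing and granins, 5 were called lower in alpha than in PP cells (background 6.72%). None was called higher, and the other 4 were higher in direction. The 5 were granins, Pam and Pcsk1, and not Pcsk2, which cuts proglucagon to glucagon. Chgb was at 802, 1352, 1549, 1482 and 2834 CPM in alpha and 2504, 4971, 6231, 3431 and 6836 CPM in PP cells (-1.60, SE 0.11), and Chga (-0.93, SE 0.07), Scg2 (-0.73, SE 0.12), the amidating enzyme Pam (-1.0, SE 0.10) and Pcsk1 (-3.52, SE 0.30) were lower as well. Pcsk2 was 7694, 6882, 7176, 6426 and 6935 CPM in alpha and 6685, 5469, 5389, 4341 and 5714 CPM in PP cells, higher in every rat at a fold change under 1.5 (0.36, SE 0.07, edgeR adjusted p = 0.00214). Chgb thus was higher in alpha than in beta cells and lower than in PP cells. Of 18 immediate early genes 7 were higher (background 6.6%) and none lower, among them Nr4a1 (2.03, SE 0.18) and Egr1 (1.37, SE 0.18), and of 24 genes of the unfolded protein response 4 were lower (background 6.72%), among them Ero1b (-0.79, SE 0.13) and Pdia6 (-0.62, SE 0.08). Without the term for the rat, the calls for Chga, Scg2, Ero1b, Pdia6, Egr1, Atox1 and Ttr were lost, with adjusted p of 0.0658 to 0.320.

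**Figure D4:**
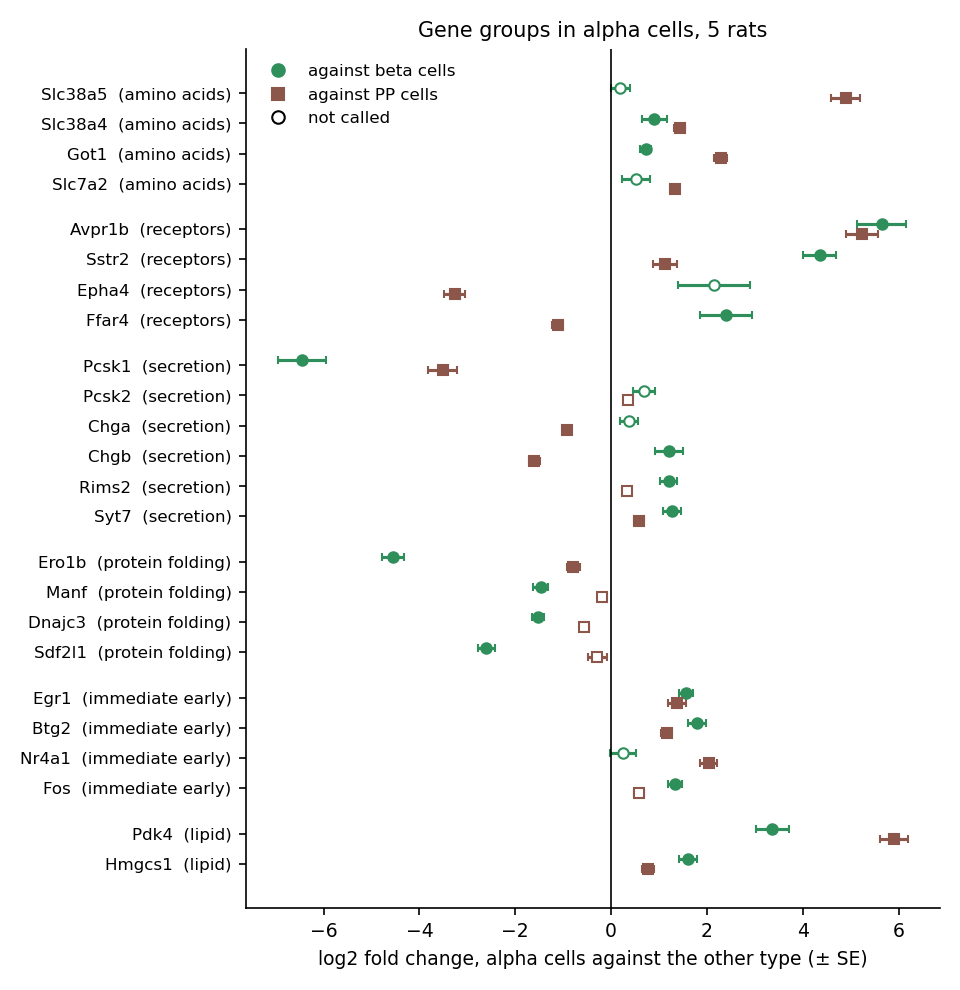
Log2 fold changes with SE of genes from 6 groups in alpha cells against beta cells (circles) and PP cells (squares) of the same 5 rats, open symbols being not called. Slc38a5 lies at 4.89 against PP and 0.19 against beta cells, Ero1b at -0.79 and -4.56, and Chgb on opposite sides of 0.

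To ask what age changed, the summed alpha cells of the 5 rats were fitted by group, with HFHF-old represented by the 20 cells of replicate 1 and assumed to vary like the other groups, and 2 residual degrees of freedom. Of 12449 genes tested, 4 were called in old against young rats, all of them higher (0.0321%), and 504 had an unadjusted p under 0.05 (4.05%). With RLE in place of TMM scaling 7 were higher and 1 lower, and by DESeq2 16 were higher and 2 lower. The settings with the most calls split them otherwise, with 52 higher and 90 lower where no filter on low counts was used. None was called when either young rat was left out.

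AC127784.2, a gene named by its clone, rose from 0.468 and 0.688 CPM in young to 82.7 and 58.2 CPM in old alpha cells, and was at 44.0 CPM in HFHF-old 1. The log2 fold change was 6.84 (SE 0.47, edgeR adjusted p = 0.000983). Immune barcodes had the same step, from 0.172 and 0.123 CPM to 26.1 and 18.4 CPM in old and 15.9 and 22.5 CPM in HFHF-old rats, at a lower level in every library. Its adjusted p without young 1 or young 2 was 0.0620 and 0.0913.

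Il1rapl2, an interleukin-1 receptor accessory-like protein best known from neurons, rose from 15.7 and 18.6 CPM to 135 and 91.6 CPM, with 46.7 CPM in HFHF-old 1 (2.72, SE 0.34, edgeR adjusted p = 0.0474). Immune barcodes had 1.09 to 4.17 CPM, below the alpha cells of all 5 libraries. Camk4, a calcium/calmodulin-dependent kinase, rose from 1.87 and 2.75 CPM to 22.1 and 22.7 CPM, with 104 CPM in HFHF-old 1 (3.28, SE 0.39, adjusted p = 0.0423). In immune barcodes it was at 98.5 and 71.5 CPM in young and 154 and 148 CPM in old rats, above alpha cells of the same rats. AABR07065625.1 rose from 19.4 and 10.7 to 154 and 281 CPM (3.84, SE 0.45, adjusted p = 0.0423) and was at 928 and 170 CPM in young and 5839 and 6766 CPM in old immune barcodes. The part of immune RNA in these last 2 rises was not tested.

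The next genes by p missed the threshold. Gpr176, an orphan receptor, was at 3.04 and 7.22 CPM in young, 53.6 and 42.7 CPM in old and 60.4 CPM in HFHF-old 1 (3.26, SE 0.43, edgeR adjusted p = 0.0525). It was at no more than 5.08 CPM in immune barcodes, and it passed in 13 of 20 alternatives. Ltc4s, RGD1559482, RT1-Bb and AABR07060872.1 were also among the 10 genes of smallest p (adjusted p of 0.0525 to 0.0804), all higher in immune barcodes than in alpha cells of the same library in young and old rats.

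No listed gene was called by age. All 24 lists had 0 called genes by edgeR, with 0 to 5 genes a list at an unadjusted p under 0.05, and DESeq2 called 3 of the listed genes, Nr4a1, RT1-A1 and RT1-Bb, all higher in old rats. Over the 12 alpha identity genes the median log2 fold change was 0.059 against -0.0200 over all genes, with 6 higher and 6 lower. Ttr was at 38.6 and 57.4 CPM in young and 85.1 and 59.2 CPM in old alpha cells (0.58, SE 0.34, adjusted p = 1.00), and Gc at 1434 and 2807 against 2916 and 2871 CPM (0.45, SE 0.51, adjusted p = 1.00). Sstr2 stood at 21.0 and 20.6 CPM in young and 47.3 and 65.8 CPM in old rats (1.45, SE 0.31, adjusted p = 0.365). Nr4a1, an immediate early nuclear receptor, stood at 112 and 48.1 against 351 and 251 CPM (1.90, SE 0.45, adjusted p = 0.491). Immune barcodes had 124 and 48.1 CPM of Nr4a1 in young and 225 and 137 CPM in old rats, a step in the same direction, and its part was not tested. Insig1, a brake on cholesterol synthesis, stood at 35.3 and 26.1 against 86.7 and 80.6 CPM (1.44, SE 0.31, adjusted p = 0.366). In Sstr2, Nr4a1 and Insig1 the groups did not overlap. An exact permutation test of 2 against 2 gives such a split p = 0.333, and the share of all genes so split was not counted. The class I gene RT1-A1 stood at 38.8 and 73.2 against 264 and 313 CPM (2.37, SE 0.40, adjusted p = 0.121), with 291 to 1351 CPM in immune barcodes of these rats.

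Marker lists of other cells had no calls by age. Those of other islet cells had medians above 0, and those of cells outside the islets had medians below 0. The medians of 6 beta and 3 delta markers were 0.242 and 0.636, and the 1 PP marker tested was at 0.584. All 14 acinar markers were lower in old rats, with a median log2 fold change of -1.57 and summed levels of 2931 and 26146 CPM in young and 8662 and 2189 CPM in old rats, which overlapped. All 10 proliferation genes were lower, with a median of -1.43, among them Mki67 at 6.31 and 18.9 against 0 and 2.76 CPM (adjusted p = 1.00). The level of Mki67 in immune barcodes was 48.2 to 169 CPM in these rats, and the part of such RNA was not tested. Endothelial markers had a median of -2.23 over 5 genes, with 15.3 to 110 CPM summed over the list. Fibroblast, macrophage and lymphocyte markers (8, 10 and 7 genes) had medians of -1.18, -0.693 and -0.457, and the 1 red cell gene tested was at -5.15. By edgeR 4 endothelial, 4 fibroblast and 3 macrophage markers had an unadjusted p under 0.05, beside 4.05% of all genes. In the acinar, lymphocyte and red cell lists 1 gene each did. The part of RNA from other cells in this was not tested.

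To ask what the HFHF diet changed, HFHF-old 1 was compared with both old rats. Since its 20 alpha cells gave 322015 UMIs outside the rule, 1 UMI in it is 2.75 CPM and a count of 0 allows up to 8.24 CPM. Of 12449 genes, 3 were called, all higher in HFHF-old (0.0241%), and 1140 (9.16%) had p under 0.05 before adjustment. The median log2 fold change over all genes was -0.0981. Since HFHF-old is 1 rat here, its difference cannot be told apart from a difference between rats. DESeq2 gave adjusted p for only 623 of the genes, not for these 3, and called 33 others, 4 higher and 29 lower.

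LOC683849 and AC142181.2 had no UMI in old alpha cells and stood at 277 and 506 CPM in HFHF-old 1, at least 386-fold and 703-fold higher on 3 counts over the old group. In young rats they were at no more than 0.688 CPM. Immune barcodes had them at 401 and 675 CPM in HFHF-old 1, above the alpha cells, at 60.1 and 82.7 CPM in HFHF-old 2 and at 49.9 and 59.1 CPM in old 1, but at no more than 0.338 CPM in old 2. The step between HFHF-old 1 and old 2 thus ran through both kinds of barcode. Tnni3k, a kinase best known from heart muscle, was at 21.3 and 14.1 CPM in young, 11 and 13.4 CPM in old and 283 CPM in HFHF-old 1 (4.50, SE 0.41, edgeR adjusted p = 0.00382), and in immune barcodes at 65.8 and 17.0 CPM in old and 41.2 and 248 CPM in HFHF-old rats. In HFHF-old 1 its level in alpha cells exceeded that of immune barcodes.

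**Figure D5:**
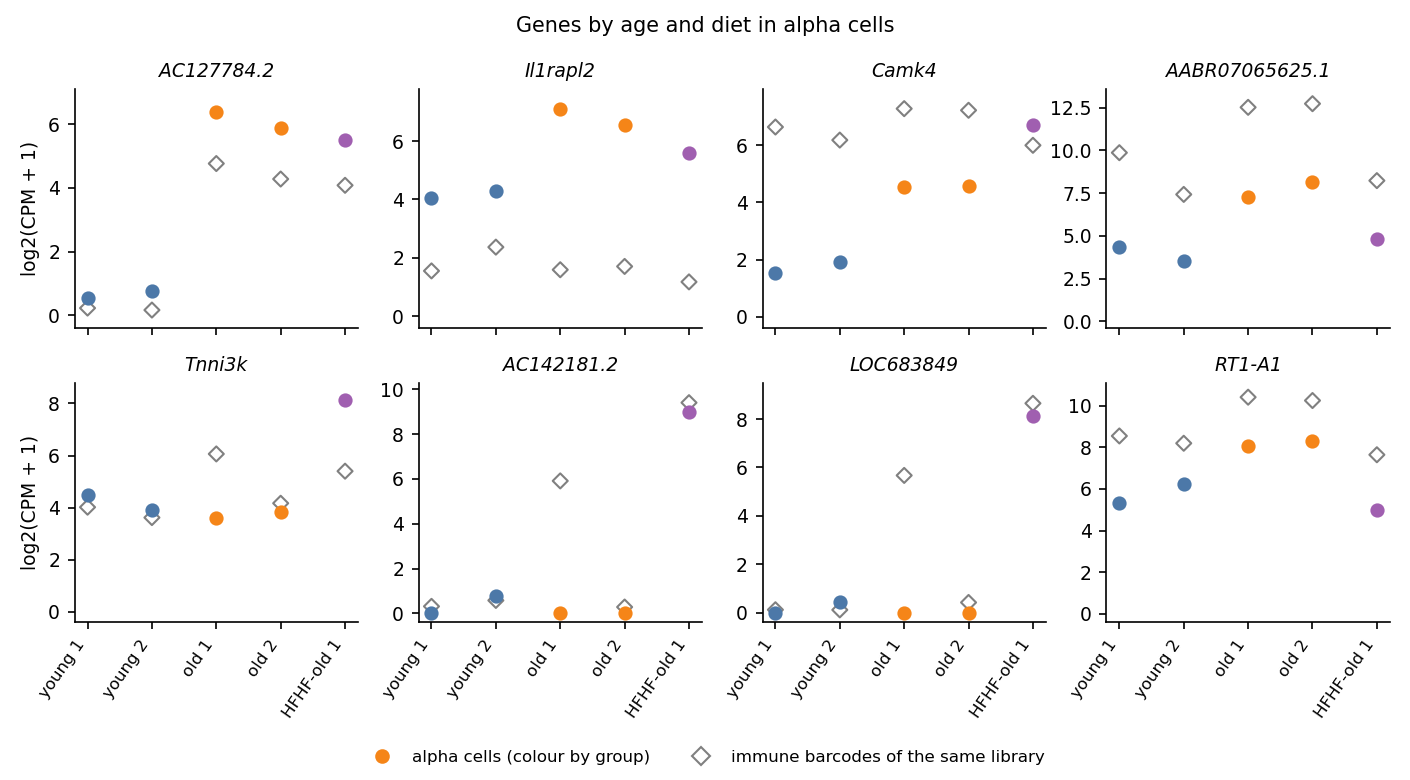
Levels, as log2(CPM + 1), of 8 genes in alpha cells (filled, coloured by group) and in immune barcodes (open diamonds) of 5 libraries. AC127784.2 and Il1rapl2 lie above immune barcodes in old alpha cells, Camk4, AABR07065625.1 and RT1-A1 below, and LOC683849 and AC142181.2 step up together with the immune barcodes of HFHF-old 1.

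No listed gene was called by diet by edgeR, in 24 lists with 0 to 8 genes each at an unadjusted p under 0.05. Slc38a5 was at 865 and 734 CPM in old and 157 CPM in HFHF-old 1 alpha cells, below all 4 other libraries (-2.35, SE 0.56, edgeR adjusted p = 0.537), and Slc38a4 at 377 and 332 against 124 CPM (-1.52, SE 0.51, adjusted p = 0.537). Sstr2 was at 47.3 and 65.8 against 16.5 CPM (-1.79, SE 0.54, adjusted p = 0.537). DESeq2 called 5 listed genes, Slc38a5 and Slc38a4 (adjusted p of 6.46e-05 and 0.0370) and the fibroblast marker Dcn lower and Hsph1 and Cadps higher in HFHF-old. In the other direction Epha4 stood at 7.88 and 9.64 against 38.5 CPM (2.11, SE 0.59) and Scn9a at 78.8 and 51.0 against 223 CPM (1.79, SE 0.48). Cadps, a priming factor of dense-core vesicles, stood at 593 and 541 against 1657 CPM (1.55, SE 0.53). Alpha cells of HFHF-old 1 also held the most Ppy and Pyy, at 3.61% of UMIs against 0.198% and 1.96% in the old rats. PP cells of HFHF-old 1 had Epha4 at 167, Slc38a5 at 7.58 and Slc38a4 at 78.3 CPM. The part of PP cell RNA in the differences of Epha4, Slc38a5 and Slc38a4 was not tested. The heat shock genes Hsph1 (124 and 234 against 1442 CPM) and Dnajb1 (49.6 and 49.6 against 173 CPM) had log2 fold changes of 3.00 and 1.80 (adjusted p = 0.525 and 0.537), and in immune barcodes of HFHF-old 1 they were at 637 and 150 CPM, against 142 to 158 and 55.4 to 61.7 CPM in the old rats.

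Shc3, an adaptor protein, stood at 13.4 and 17.6 CPM in old and 113 CPM in HFHF-old 1 (2.83, SE 0.48, adjusted p = 0.297 by edgeR) and Vwa5b1 at 4.73 and 4.48 against 49.5 CPM (3.42, SE 0.57, adjusted p = 0.297). Both were among the 10 genes of smallest p, together with LOC286960, AABR07040864.1, Camk4, AABR07053472.1 and RT1-A1, which had adjusted p of 0.130 to 0.525. RT1-A1 was at 30.2 CPM in HFHF-old 1 against 264 and 313 CPM in old rats (-3.25, SE 0.63), and in immune barcodes at 198 against 1351 and 1208 CPM. The medians of the lists for inflammation and antigen presentation, antioxidant genes and the unfolded protein response were -0.900, -0.696 and -0.0348, beside -0.0981 over all genes. With genes at 0 set to their bound they were -0.804, -0.591 and -0.0348. These values set 1 HFHF-old rat against 2 old rats, and the part of immune RNA in them was not tested.

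The genes that the study followed in alpha cells by age and diet were not called in either comparison by edgeR. Atox1, a copper chaperone, was at 360 and 491 CPM in young, 395 and 462 CPM in old and 201 CPM in HFHF-old 1, with edgeR adjusted p of 1.00 by age and 0.540 by diet. Sod1, superoxide dismutase, was at 310 and 452, 510 and 533, and 286 CPM (log2 fold changes 0.45 and -0.87). Ndufs4, of respiratory complex I, was at 138 and 192, 184 and 207, and 140 CPM (0.25 and -0.48). In all 3 the value of HFHF-old 1 was below both old values, which sets 1 rat against 2. Young and old rats overlapped for Atox1 and Ndufs4, and both old rats were above both young rats for Sod1.

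Ero1b was at 36.0 and 22.0 CPM in young, 22.1 and 22.0 CPM in old and 44.0 CPM in HFHF-old 1 (-0.40 by age and 0.99 by diet, SE 0.34 and 0.50), and at 25.8 to 38.1 CPM in immune barcodes of these 5 libraries. Pyroxd1 was at 15.5 to 20.5 CPM throughout (0.13 and 0.042). Pdx1, Slc2a2 and Pcsk1 were at 1.58 to 17.6 CPM in young and old rats, with log2 fold changes by age of 1.05, 0.89 and -0.071 (SE 0.77, 0.78 and 0.64), and had no UMI in HFHF-old 1. The study reported Pdx1, Slc2a2 and Pcsk1 as higher in alpha cells with the HFHF diet, by its own cell classes. No rise was seen in this 1 library. A count of 0 allows up to 8.24 CPM there, above the old means of Pdx1 and Slc2a2. A fall of Pdx1 or Slc2a2, or a rise that stayed under this limit, was thus not detectable at this depth. Pcsk1, at a mean of 9.96 CPM in old rats, was at least 1.21-fold lower in HFHF-old 1 on 3 counts, although old 1 by itself lay below 8.24 CPM.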

How the data were processed

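Per the labels and file headers, the authors aligned droplet reads to the rat genome (build Rnor 6.0, in the submitters' processing notes) and counted UMIs per gene and barcode with Cell Ranger (5.0.0 in the file headers; the study's methods name a later version), and deposited 6 filtered matrices of raw UMI counts of 32883 genes, 1 library a rat. Barcodes were kept and classed by the limits given in the report. The members, the 24 gene lists and the tests were chosen with earlier results of these data known. Counts were summed per rat and class, without the 7 genes of the rule, and fitted with edgeR 4.0.16 (glmQLFit, TMM, filterByExpr) in R 4.3.3, by group (2 residual degrees of freedom) or by cell type with the rat as a block (4), since alpha, beta and PP cells came from the same rats. P-values were Benjamini-Hochberg adjusted over all genes tested, and called genes also had a fold change over 1.5. Sums of fewer than 10 cells were left out.

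The fitted sums held 322015 to 3997399 UMIs in alpha, 851864 to 5702024 in beta and 688818 to 2320552 in PP cells. Cells of a rat are not replicates. P-values by age measure the spread between rats of a group. Those by cell type measure how the difference within a rat varies among rats. Those by diet hold no spread among HFHF-old rats, since only 1 entered. Genes were named as the 10 called genes with the largest fold change each way, with at least 20 CPM in the higher group and no overlap of groups or the same direction in every rat, as the 10 with the smallest p where fewer than 5 were called, as 2 to 4 genes a list by smallest p, and as the study's alpha cell genes in full; further list members were named after their values were seen. Replicate numbers of young and old rats share no stated source, and their deviations correlated at 0.16 over 2 pairs. This is above the limit of 0.1 set for pairing samples. The fit with a replicate block, which called 38 genes by age against 4 without it, was nonetheless kept as an alternative only. Alternatives were DESeq2 1.42.0, RLE scaling, no filter on low counts, other limits for cells, a replicate block and leaving out each rat. The limit of 1000 UMIs and the definition of immune barcodes without hormone were chosen after seeing the data. Counts were also simulated with 200 changed genes. Each gene had the same base level in all rats and the spread of the trend with level, not its own spread. The comparison of old with young rats recovered 1%, 72% and 86% of genes changed by 1, 2 and 3 on the log2 scale, with 0, 5 and 5 false calls. That of alpha with beta cells recovered 60%, 95% and 99%, with 6, 3 and 5 false calls. Recovery in the real data may differ, and the comparisons by diet and with PP cells were not simulated. Python 3.11.15, numpy 2.4.6, scipy 1.17.1, pandas 2.3.3 and matplotlib 3.10.9 were used. Doublets were not called, and an alternative kept only cells whose other hormones came to under 10% of Gcg. A few genes that met these rules are not reported here.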

Additional observations from a re-analysis of the deposited data

How the results depend on the processing

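The counts by age and diet rested on few rats, and the cause of their moves was not tested. By age the count moved by over 1.5 times in 16 of 20 alternatives, and by diet in 9 of 19. By age 4 genes were called, against 12 with a Gcg share of at least 10%, 8 without the top 1% of gene number, 2 with no condition on Ptprc, 7 with at least 1000 UMIs, 18 by DESeq2, 8 with RLE scaling, 142 with no filter on low counts, 1 with the genes of the rule kept, 87 with at least 1 alpha cell per rat and 1 with only the 2 groups compared. Leaving out a rat gave 0 to 107: 0 without young 1 (752 genes at an unadjusted p under 0.05) or young 2 (968), 107 without old 1, 82 without old 2 and 1 without HFHF-old 1. Of these genes 52 were higher and 90 lower with no filter, and 41 and 46 with at least 1 alpha cell per rat. They numbered 47 and 60 without old 1 and 35 and 47 without old 2. Elsewhere most were higher, with 24 and 14 with the replicate block, 16 and 2 by DESeq2 and 7 and 1 with RLE scaling. A Gcg share of at least 10% gave 11 and 1, leaving out the top 1% 7 and 1, and at least 1000 UMIs 6 and 1. AC127784.2 lost its call without either young rat only, and Camk4, AABR07065625.1 and Il1rapl2 lost theirs in 7 alternatives each.

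By diet 3 genes were called, 3 or 4 in 10 alternatives, against 6 with no condition on Ptprc, 33 by DESeq2, 115 with no filter, 60 with at least 1 alpha cell per rat, and 0 of 1919 or of 2086 genes at least 2 times as high in alpha cells as in Ptprc-positive barcodes or in immune barcodes without hormone (203 and 222 at an unadjusted p under 0.05). The 3 called genes were not among those 1919 or 2086, so they could not be called there. Leaving out a rat gave 3 to 55, with 55 without old 1 and 29 without old 2; without HFHF-old 1 no value can be had. Higher and lower numbered 58 and 57 with no filter, 33 and 27 with at least 1 alpha cell, 31 and 24 without old 1 and 15 and 14 without old 2.

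With the replicate block, which pairs rats by number alone, 38 genes were called by age and 5 by diet. Without the block for the rat, 1741 genes were called between alpha and beta and 619 between alpha and PP cells, and leaving out a rat gave 2110 to 2797 and 1117 to 1447.

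The difference in the share of barcodes by age reversed, to 0.130 points, with other hormones under 10% of Gcg, and ran from -2.05 to 0.513 when a rat was left out (0.196 without young 2, 0.513 without old 1). That by diet ran from -3.88 to -1.31. In islet barcodes the differences ran from -37.6 to 4.12 by age (4.12 without young 1) and from -21.7 to 13.1 by diet (1.57 without old 2, 13.1 without HFHF-old 1).

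Among named genes, the signs that reversed were of genes not called. By age Pcsk1 was 0.36 with a Gcg share of at least 10%, 0.16 without the top 1% and 0.15 with no condition on Ptprc, and ran from -2.26 (without old 2) to 0.67 (without old 1) when a rat was left out, and Atox1 was -0.028 with no condition on Ptprc and -0.0050 with no filter, and ran from -0.20 to 0.25. By diet Pyroxd1 was -0.11 with no condition on Ptprc, -0.0028 with no filter and -0.092 with the replicate block, and ran from -0.082 to 0.087. Against beta cells Atox1 was 0.087 with other hormones under 10% of the defining one and ran from -0.15 to 0.093, Pyroxd1 was 0.082 without the top 1%, and Rfx6 was -0.11 with other hormones under 10% and -0.046 without the block for the rat, and ran from -0.14 to 0.29. Against PP cells Ndufs4 was -0.0087 without the top 1% and ran from -0.028 to 0.097, and Pyroxd1 ran from -0.081 to 0.27.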

Other observations

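Of 9 pan-islet factors tested, 3 were called higher against beta cells (background 11%) and none lower, with all 9 higher in direction and a median log2 fold change of 0.33. The called genes were Etv1 (3.95, SE 0.42), Isl1 (1.28, SE 0.20) and Rfx3 (0.92, SE 0.17). Against PP cells the 3 called higher (background 6.6%) were the Rfx6, Isl1 and Neurod1 given above, while 4 of 9 were higher and 5 lower in direction, with a median of -0.091. Of the senescence and growth arrest list, 0 of 12 genes were called by age by edgeR, with 2 at an unadjusted p under 0.05 and 9 higher and 3 lower in old rats (median log2 fold change 0.402 against -0.0200 over all genes), and 0 of 12 by diet, with 4 at an unadjusted p under 0.05 and 2 higher and 10 lower (median -0.621, or -0.531 with genes at 0 set to their bound, against -0.0981). Of 21 channel and glucose-sensing genes, HFHF-old 1 had more of 15 and less of 6 than the old rats. The median log2 fold change was 0.491 against -0.0981 over all genes. Since HFHF-old is 1 rat here, this cannot be told apart from a difference between rats.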
